A study of Mus musculus with 11 samples.

Results

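The Dlk1-Dio3 cluster is an imprinted stretch of mouse chromosome 12, in which some genes are transcribed mainly from the paternal chromosome and others from the maternal one. It was followed here through 7 genes, Dlk1, Meg3, Rtl1, Rian, Mirg, Dio3os and Dio3, of which 6 have a row among the 13498 genes of the count table and all 6 were tested among 13292 genes, while Rtl1 has no row and was not analysed here. The locus was chosen by the low counts of Dio3 and Dio3os in the double mutant against control, so that contrast is given for every gene of the locus as a description, in which counts of calls support nothing. The question is how far the low levels of the pair are shared by the other members. RNA-seq counts of whole genes hold no allele information, so parental origin was not measured.

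Dlk1 encodes a transmembrane protein related to the Notch ligands and, like Rtl1 and Dio3, is expressed mainly from the paternal chromosome. Meg3, Rian and Mirg are long noncoding RNAs transcribed from the maternal chromosome, and they are hosts of small nucleolar RNAs and microRNAs. A methylated region between Dlk1 and Meg3 controls imprinting of the cluster. Dio3, at the far end, encodes the type 3 deiodinase, a selenoenzyme that inactivates thyroid hormone, and Dio3os is a noncoding RNA that starts near Dio3 and runs the other way. In the mouse retina Dio3 is known for limiting the exposure of developing cones to thyroid hormone.

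Total RNA was sequenced from pairs of retinas dissected at E13.5 from NMRI mouse embryos. All 4 groups carried homozygous floxed Six3 alleles (Six3F/F), and the pregnant dams received tamoxifen (0.15 mL, 20 mg/mL) at E10.5 and again at E11.5. The WT group (3 libraries) had no Cre and intact Six6. The Six3KO group (3 libraries) also carried CAGGCre-ERTM, a widely expressed tamoxifen-dependent Cre. The Six6KO group (2 libraries left of 3) was Six6-/- without Cre, the third sample having been removed by the authors for high duplication. The 3 DKO libraries came from retinas that were Six6-/- and carried CAGGCre-ERTM. An effect of Six3 loss cannot be told apart from one of Cre in comparisons of a Cre-carrying with a Cre-free group. Six3 and Six6 are related homeodomain factors of retinal progenitors.

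Each library held 7807744 to 16403191 reads in genes. Six3 had a mean of 229 CPM (read counts scaled to library size by TMM) in WT, 60.0 in Six3KO and 70.5 in DKO, and Six6 had 281 CPM in WT, 104 in Six6KO and 69.5 in DKO, so that no library went against its label. Summed CPM of 15 retinal progenitor markers lay at 5163 to 8074 in WT and 3396 to 4944 in DKO. It lay at 3113 to 6241 in Six3KO and 3815 to 6762 in Six6KO, and no marker was at 0 reads in any library. Summed CPM of 26 periocular mesenchyme markers lay at 951 to 3876 in WT, 1062 to 6761 in Six3KO, 2796 to 4634 in Six6KO and 575 to 668 in DKO, with at most 1 marker at 0 reads in a library. Summed CPM of 22 lens markers ran from 49.4 in a DKO library to 27156 in Six3KO library rh012. Markers of tissue that borders the retina were thus read in all groups, at levels that differed between libraries of a group.

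The cluster spans 828 kb from the start of Dlk1 to the end of Dio3 in GENCODE vM21 (GRCm38). Dlk1 lies on the plus strand at chr12:109452823-109463336. Meg3 follows after 77.7 kb at chr12:109541001-109571726, then Rian at chr12:109603940-109661716 and Mirg at chr12:109729764-109749460, all on the plus strand. After a gap of 526 kb comes Dio3os, on the minus strand at chr12:110275385-110278172, and then Dio3, on the plus strand at chr12:110279068-110281097. The start sites of Dio3os and Dio3 are 0.896 kb apart in that annotation and their exons do not overlap each other, so reads of the pair are not shared through annotated exons. Exons of Meg3 overlap those of Gm26906 on the other strand, and without a stated strand setting their reads cannot be told apart. Exons of Rian, Mirg, Meg3 and Dio3os also contain small RNA genes, whose reads may be counted with the host.

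The promoter windows of Dio3 and Dio3os are shown because the 2 genes were low together and are transcribed away from each other, and those of Dlk1 and Meg3 because they start the other end of the cluster. Each window runs from 250 bases before to 50 bases after a RefSeq start site (GRCm38.p6), 5′ to 3′ on the strand of the gene. Capitals mark matches on either strand to the TATA box TATAAA, the CCAAT box CCAAT, the cAMP response element TGACGTCA or the Six-family motif GTATCA.
Dio3 (chr12:110278980-110279279, plus strand): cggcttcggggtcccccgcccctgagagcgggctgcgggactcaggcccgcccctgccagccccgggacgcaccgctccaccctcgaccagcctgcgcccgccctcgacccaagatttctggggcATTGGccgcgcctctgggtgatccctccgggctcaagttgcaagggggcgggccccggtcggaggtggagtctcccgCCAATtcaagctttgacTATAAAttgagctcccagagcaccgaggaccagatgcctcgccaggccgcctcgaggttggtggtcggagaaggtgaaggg
Dio3os (chr12:110278019-110278318, minus strand): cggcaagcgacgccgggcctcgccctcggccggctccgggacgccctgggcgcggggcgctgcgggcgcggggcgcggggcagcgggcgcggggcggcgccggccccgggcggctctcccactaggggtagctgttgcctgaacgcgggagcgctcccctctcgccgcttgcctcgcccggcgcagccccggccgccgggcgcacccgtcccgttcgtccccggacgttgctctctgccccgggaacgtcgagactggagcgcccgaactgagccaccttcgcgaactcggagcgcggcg
Dlk1 (chr12:109452573-109452872, plus strand): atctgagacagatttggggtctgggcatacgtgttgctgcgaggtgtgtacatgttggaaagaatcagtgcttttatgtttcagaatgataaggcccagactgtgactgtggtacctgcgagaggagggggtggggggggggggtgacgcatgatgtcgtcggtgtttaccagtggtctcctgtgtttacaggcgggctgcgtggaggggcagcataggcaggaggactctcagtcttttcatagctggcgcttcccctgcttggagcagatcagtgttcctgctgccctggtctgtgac
Meg3 (chr12:109540746-109541045, plus strand): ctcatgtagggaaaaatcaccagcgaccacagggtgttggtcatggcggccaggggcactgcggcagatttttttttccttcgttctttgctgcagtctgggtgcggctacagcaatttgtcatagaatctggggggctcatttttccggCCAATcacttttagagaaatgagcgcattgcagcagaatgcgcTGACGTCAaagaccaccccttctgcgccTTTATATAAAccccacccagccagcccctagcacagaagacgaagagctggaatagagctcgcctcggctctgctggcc

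The Dio3 window held 1 TATA box, starting 31 bases before the start site, and 2 CCAAT boxes. The Meg3 window held 2 overlapping TATA box matches on opposite strands, 1 CCAAT box and 1 cAMP response element. The Dio3os and Dlk1 windows held none of the 4 motifs, and the Six-family motif was in none of the 4 windows. Of 32851 promoter windows of the same length, 13.6% held the TATA box, 37.4% the CCAAT box, 1.79% the cAMP response element and 5.46% the Six-family motif. The windows differed in base composition: Dio3os held 53 CG dinucleotides and Dio3 held 25, against 13 in Meg3, 9 in Dlk1 and a median of 7 over all windows, and 0.347% of windows held more than Dio3os. For Dio3, Meg3 and Dlk1, 16.9%, 36.3% and 43.5% of windows held more CG dinucleotides. These letters describe the windows, and no binding was measured.

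Dio3 was low in every DKO library and lay between WT and DKO in every single mutant library. Its level was 21.7, 35.0 and 15.4 CPM in the 3 WT libraries (rh016, rh023 and rh024), from 278, 303 and 121 reads. In Six3KO it was 9.67, 13.1 and 4.24 CPM (rh006, rh012 and rh026), and in Six6KO 14.9 and 6.95 CPM (rh007 and rh020). In DKO it was 0.328, 0.0828 and 1.59 CPM (rh010, rh011 and rh021), from 4, 1 and 20 reads. In bulk retina, fewer cells of a type and less RNA per cell cannot be told apart. No 2 of the WT, single mutant and DKO sets overlapped, although WT library rh024 and Six6KO library rh007 were 15.4 and 14.9 CPM. The 5 single mutant libraries all lay below all WT libraries for 1 of the 6 members, Dio3, and for 1.02% of all genes tested. The Six3KO libraries alone did so for Dio3 too, and for 3.7% of all genes.

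Dio3os was also low in every DKO library. It stood at 13.9, 28.0 and 25.4 CPM in WT, at 13.1, 17.0 and 4.44 CPM in Six3KO, and at 12.6 and 7.60 CPM in Six6KO. In DKO it stood at 0.0820, 0.248 and 2.38 CPM, from 1, 3 and 30 reads. WT and Six3KO libraries overlapped for Dio3os, whereas both Six6KO libraries lay below WT. Every DKO library was below every other library for Dio3 and Dio3os, which were 2 of 6 members, against 3.57% of all genes tested; every DKO library was below every WT library for the same 2 members, against 8.46%. The low DKO values chose this pair, so nothing is read from these counts. Among DKO libraries, rh021 had the most reads of both genes, and it also had the most Six3 and Six6 (98.2 and 99.8 CPM).

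**Figure D1:**
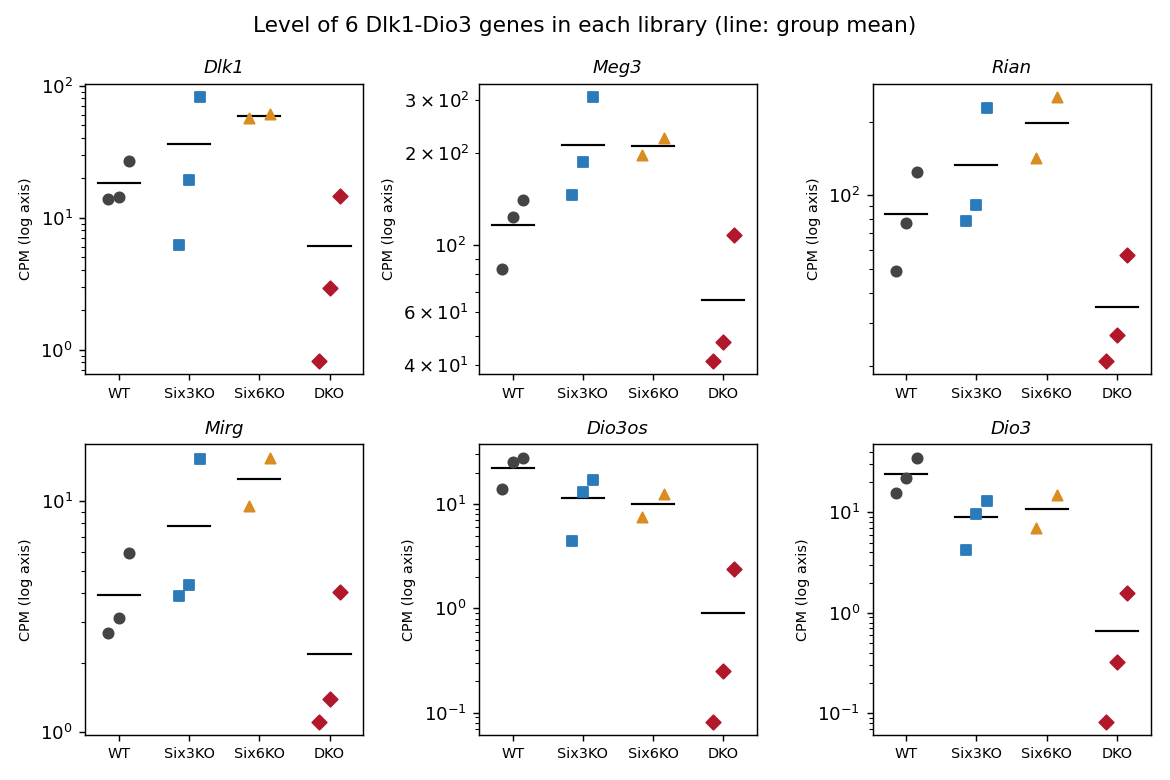
CPM (vertical axes, log scale) of the 6 members in each library of the WT, Six3KO, Six6KO and DKO groups (points, with a line at the group mean). Dio3 and Dio3os lie at 2.38 CPM or less in the DKO libraries and at 4.24 CPM or more in the other 8, while the other 4 genes overlap between DKO and WT.

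The log2 difference between DKO and WT was -5.14 ± 0.82 (standard error) for Dio3, a fold of 35.3, and -4.60 ± 0.92 for Dio3os, a fold of 24.3. Without DKO library rh021 these were -6.79 ± 0.85 and -6.99 ± 0.86. Both passed the edgeR threshold (Benjamini-Hochberg adjusted p under 0.05 over all genes) and they are the 2 of 6 members that did; 172 genes (1.29%) passed, 85 of them lower (0.639%). As this contrast chose the pair, these calls describe it and support nothing. The call of Dio3 was lost in fits without DKO library rh010, DKO library rh011, Six3KO library rh006, WT library rh016 or WT library rh023, where log2 values lay between -5.21 and -4.63. In DKO the few reads left allow only a coarse ratio between the pair, but in the other 8 libraries Dio3 had 0.608 to 1.56 reads per read of Dio3os.

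The other 4 members were lower in DKO than in WT by estimate, with smaller estimates than Dio3 and Dio3os. The log2 difference was -1.59 ± 1.03 for Dlk1, -0.81 ± 0.39 for Meg3, -1.26 ± 0.54 for Rian and -0.85 ± 0.67 for Mirg. These 4 were not among the genes called, and for none of the 4 was every DKO library below every WT library. The median over the 6 members was -1.43, against -0.00 over all genes tested. It includes Dio3 and Dio3os, which this contrast chose, so nothing is read from it.

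Dlk1, the paternally expressed gene at the other end of the cluster from Dio3, had the widest standard error of the 6 members in DKO against WT. It stood at 27.0, 13.8 and 14.3 CPM in WT, at 19.1, 6.24 and 82.2 CPM in Six3KO, at 60.7 and 56.4 CPM in Six6KO, and at 0.820, 14.6 and 2.93 CPM in DKO (libraries in the order given for Dio3). DKO library rh011, the one with the fewest Dio3 reads, thus had more Dlk1 than 2 of the 3 WT libraries. Six3KO library rh026 had the most Dlk1 of all 11 libraries and the least Dio3 outside DKO.

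Meg3, the maternally expressed noncoding RNA next to Dlk1, had the highest mean per kilobase of exon in the 3 mutant groups. Its level was 83.3, 124 and 140 CPM in WT and 146, 187 and 307 CPM in Six3KO. In Six6KO it was 198 and 225 CPM, and in DKO 48.0, 108 and 41.4 CPM. Every single mutant library lay above every WT library. The Six3KO libraries alone did so for 3.1% of all genes and the Six6KO libraries alone for 7.2%. Every DKO library lay below every single mutant library, as for 6.42% of all genes, while DKO and WT overlapped through rh011 and rh016.

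Rian, host of a cluster of box C/D small nucleolar RNAs, stood at 125, 49.0 and 77.4 CPM in WT and at 78.5, 91.6 and 227 CPM in Six3KO. It stood at 142 and 252 CPM in Six6KO and at 21.1, 56.9 and 26.9 CPM in DKO. Mirg, host of a microRNA cluster (14 RefSeq hairpins lie within it), had the lowest mean per kilobase of exon in all 4 groups. It stood at 5.94, 3.12 and 2.68 CPM in WT and 3.89, 4.32 and 15.2 CPM in Six3KO. It was at 9.51 and 15.4 CPM in Six6KO and at 1.39, 4.06 and 1.11 CPM in DKO, where 14 to 49 reads were counted. For both genes the highest 3 libraries were both Six6KO libraries and Six3KO library rh026, and for both rh011 was the highest of the DKO libraries and overlapped WT.

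A further row of the table, 6430411K18Rik, lies between Meg3 and Rian at chr12:109591537-109592851 in RefSeq. RefSeq lists it as a noncoding RNA with the synonym PEG11as and gives the same name as a synonym of Rtl1. Its position is inside the span of Rtl1 (chr12:109589193-109600330, minus strand, in GENCODE vM21). Without a stated strand setting, its reads may include reads of Rtl1. The row 6430411K18Rik was not among the named members and was picked out for its position, with its values already in view. It stood at 7.58, 3.82 and 5.48 CPM in WT, 4.38, 4.32 and 14.3 CPM in Six3KO, 10.3 and 27.1 CPM in Six6KO, and 2.05, 5.13 and 1.74 CPM in DKO. Its levels over the libraries were close in pattern to those of Rian and Mirg. Of 13291 genes, Mirg ranked 1 and Rian 3 by Pearson correlation with it over the 11 libraries (r = 0.96 and 0.95 on log2 CPM).

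Per kilobase of annotated exon, the order of the members differed between groups. In WT the mean RPKM (CPM per kb of exon) was 13.3 ± 4.45 for Dio3os and 11.9 ± 4.93 for Dio3 (SD, n = 3), 6.39 ± 1.61 for Meg3, 4.59 ± 2.10 for Rian, 3.24 ± 1.32 for Dlk1 and 0.537 ± 0.243 for Mirg. Dio3os and Dio3 differed by less than either SD in WT, and Rian differed from Meg3 and from Dlk1 by less than its own SD. In the Six6KO group (n = 2) Meg3, Rian and Dlk1 led with mean RPKM of 11.7, 10.8 and 10.3, and Dio3os and Dio3 stood at 6.01 and 5.37. In Six3KO the mean RPKM was 11.8 for Meg3, 7.26 for Rian, 6.83 for Dio3os, 6.34 for Dlk1 and 4.43 for Dio3, and Rian, Dio3os and Dlk1 differed by less than any of their SDs. In DKO the mean RPKM was 3.63 ± 2.03 for Meg3, 1.92 ± 1.05 for Rian and 1.08 ± 1.31 for Dlk1, against 0.537 ± 0.761 for Dio3os and 0.328 ± 0.397 for Dio3. Lengths are those of GENCODE vM21, which may differ from the annotation the authors counted with.

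The comparisons of each single mutant with WT use libraries that did not choose the members, except WT itself. In Six3KO against WT, the log2 difference was -1.42 ± 0.66 for Dio3 and -0.96 ± 0.76 for Dio3os, whereas it was 0.95 ± 0.99 for Dlk1, 0.88 ± 0.39 for Meg3, 0.66 ± 0.53 for Rian and 0.98 ± 0.65 for Mirg. None of the 6 members passed (edgeR adjusted p = 1 for each; 1 member had an unadjusted p under 0.05, and DESeq2 called 0), with 1 gene called of all genes (0.00752%). Six3 itself did not pass in this comparison either, at -1.93 ± 0.43, so the lack of calls says little about the members. The member values above 0 rested largely on Six3KO library rh026. Without it Dlk1 stood at -0.54 ± 0.92, Rian at 0.01 ± 0.49, Mirg at 0.05 ± 0.56 and Meg3 at 0.52 ± 0.38. Library rh026 also had the least Dio3 and Dio3os of Six3KO (4.24 and 4.44 CPM). With any 1 library left out, Dio3 stood at -1.04 or lower and Dio3os at -0.58 or lower.

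In Six6KO against WT, where neither group carries Cre, the log2 difference was -1.14 ± 0.76 for Dio3 and -1.14 ± 0.88 for Dio3os. It was 1.67 ± 1.08 for Dlk1, 0.87 ± 0.43 for Meg3, 1.23 ± 0.58 for Rian and 1.66 ± 0.71 for Mirg. Both Six6KO libraries lay above all WT libraries for these last 4 genes, as for 7.2% of all genes, and below them for Dio3 and Dio3os, as for 5.85%. None of the 6 passed (edgeR adjusted p = 0.991 for each; 1 member had an unadjusted p under 0.05, and DESeq2 called 0), and 0 genes of all passed in edgeR (0%), with 518 at an unadjusted p under 0.05 and 2 called by DESeq2. In both single mutants the estimates for the Dio3 pair were below 0 and those for the other 4 above 0, in comparisons that share the WT libraries. In Six3KO this rested on library rh026 for Dlk1 (-0.54 without it), Rian (0.01) and Mirg (0.05).

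**Figure D2:**
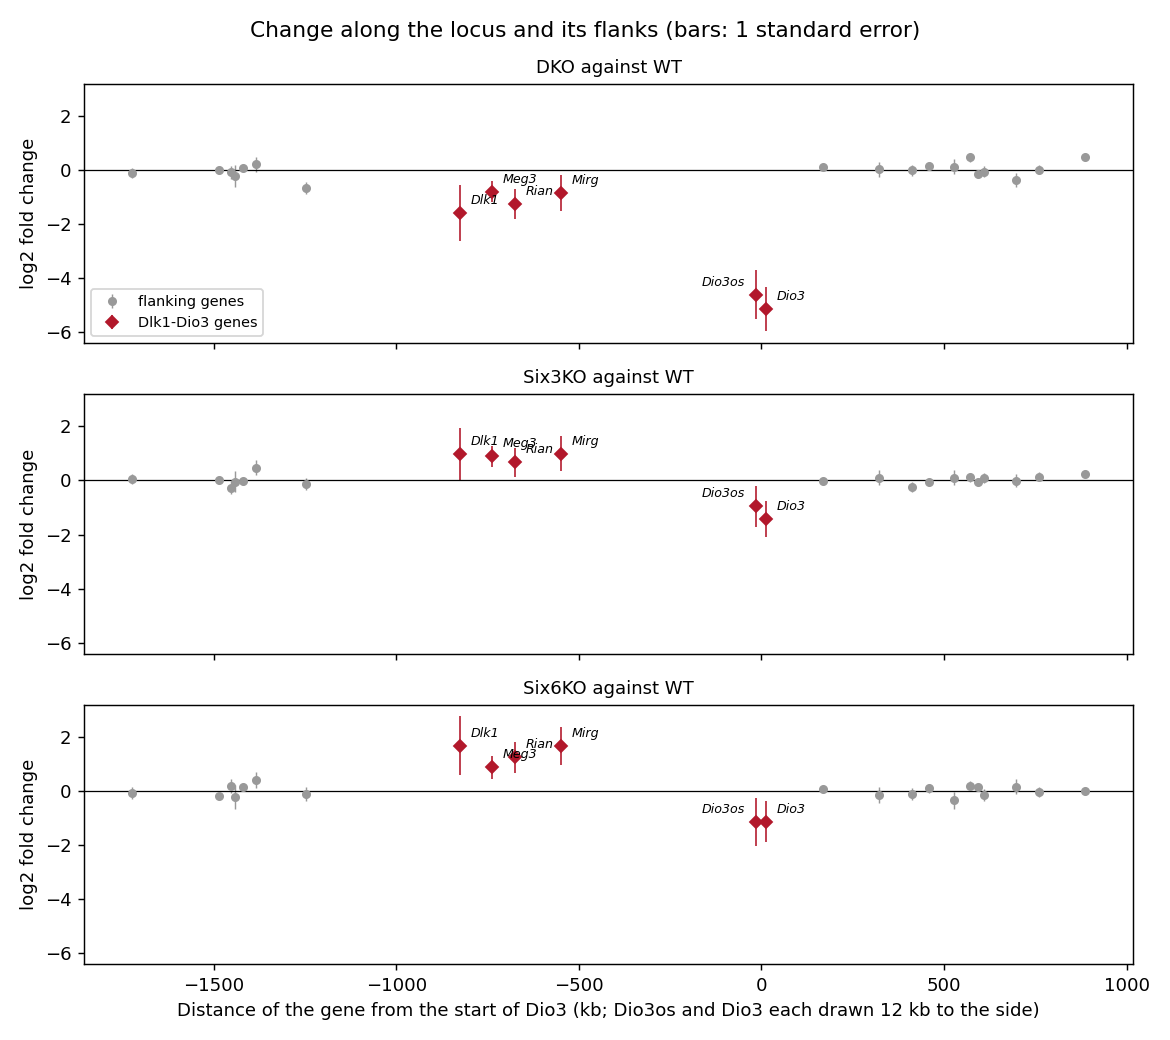
Log2 fold change against WT (vertical axes, bars of 1 standard error) of the 6 members (diamonds) and of 18 flanking genes (circles) by distance from the start of Dio3 (horizontal axis, kb), for DKO, Six3KO and Six6KO. In DKO the Dio3 pair lies at -5.14 and -4.60 while the flanking genes lie between -0.67 and 0.49, and in the single mutants Dlk1, Meg3, Rian and Mirg have estimates above 0 and the Dio3 pair below 0.

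Six3KO against Six6KO is the contrast that uses no library of the DKO and WT groups. Here the log2 difference was -0.27 ± 0.74 for Dio3, 0.19 ± 0.86 for Dio3os, -0.71 ± 1.07 for Dlk1, 0.01 ± 0.43 for Meg3, -0.58 ± 0.58 for Rian and -0.68 ± 0.70 for Mirg. None passed (edgeR adjusted p = 1 for each; 0 members had an unadjusted p under 0.05, and DESeq2 called 0), and 1 gene of all passed (0.00752%). Each estimate was about the size of its standard error or smaller, so a difference between the single mutants was not detectable at this number of libraries.

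Against the single mutants, the DKO libraries were low for the whole cluster by estimate. Both comparisons share the DKO libraries with the contrast that drew attention to the locus. With Cre present on both sides, in DKO against Six3KO, the log2 difference was -3.72 ± 0.79 for Dio3 (edgeR adjusted p = 0.0777) and -3.64 ± 0.89 for Dio3os (0.115). It was -1.70 ± 0.40 for Meg3 (edgeR adjusted p = 0.101), -1.92 ± 0.55 for Rian (0.164), -1.83 ± 0.67 for Mirg (0.272) and -2.55 ± 1.05 for Dlk1 (0.337). In edgeR 0 of 6 passed, with 6 at an unadjusted p under 0.05, and DESeq2 called 4 (Meg3, Rian, Dio3os and Dio3). Among all genes 78 passed in edgeR (0.587%), 34 of them lower (0.256%), 13.2% had an unadjusted p under 0.05, and DESeq2 called 774. Without DKO library rh021 Dio3 and Dio3os passed, at -5.37 and -6.03 (edgeR adjusted p = 0.0322 and 0.0205).

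In DKO against Six6KO, where both groups lack Six6, the log2 difference was -4.00 ± 0.84 for Dio3 (edgeR adjusted p = 0.0999), -3.46 ± 0.94 for Dio3os (0.166), -1.69 ± 0.43 for Meg3 (0.143), -2.50 ± 0.59 for Rian (0.125), -2.51 ± 0.72 for Mirg (0.181) and -3.26 ± 1.13 for Dlk1 (0.24). Again 0 of 6 passed in edgeR, with 6 at an unadjusted p under 0.05, and DESeq2 called 5, all but Dlk1. Among all genes 31 passed in edgeR (0.233%), 9 of them lower (0.0677%), 14.8% had an unadjusted p under 0.05, and DESeq2 called 671. Every DKO library was below both Six6KO libraries for all 6 members, as for 18.6% of all genes, and below all 5 single mutant libraries for Meg3, Rian, Dio3os and Dio3, 4 of 6 members, as for 6.42% of all genes. Without DKO library rh021 Dio3 and Dio3os passed, at -5.65 and -5.84 (edgeR adjusted p = 0.0363 and 0.0357).

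The highest levels of Dlk1, Rian and Mirg were in libraries with high levels of periocular mesenchyme markers, but not every library with high markers had high levels of them. The mesenchyme score (mean log2 CPM of the 26 markers relative to the WT mean) was 1.07, -2.11 and 1.03 in the WT libraries, 0.38, -1.53 and 1.85 in Six3KO, 0.92 or more in both Six6KO libraries, and -3.06, -2.23 and -2.61 in DKO. WT library rh023, whose score was closest to those of DKO, had the most Dio3 and Dio3os of all libraries, the least Rian of WT and 13.8 CPM of Dlk1, close to the 14.6 CPM of DKO library rh011. WT library rh024 had a score of 1.03, yet its Dlk1 (14.3 CPM) was close to that of rh023 and its Mirg (2.68 CPM) was below those of rh023, DKO library rh011 and Six3KO library rh012, all of which had scores below 0. Six3KO library rh026, with the highest score, had the most Dlk1 and Meg3 of all libraries. A progenitor score, made likewise from the 15 retinal progenitor markers, was highest in rh023 (0.28), beside -0.27 and -0.01 in rh016 and rh024. It was -0.03, 0.02 and -0.87 in Six3KO, 0.14 and -0.57 in Six6KO, and -0.81, -0.86 and -0.19 in DKO. In each mutant group the library with the lowest progenitor score had the least Dio3, but not in WT. The part of progenitor content in the level of Dio3 was not tested.

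**Figure D3:**
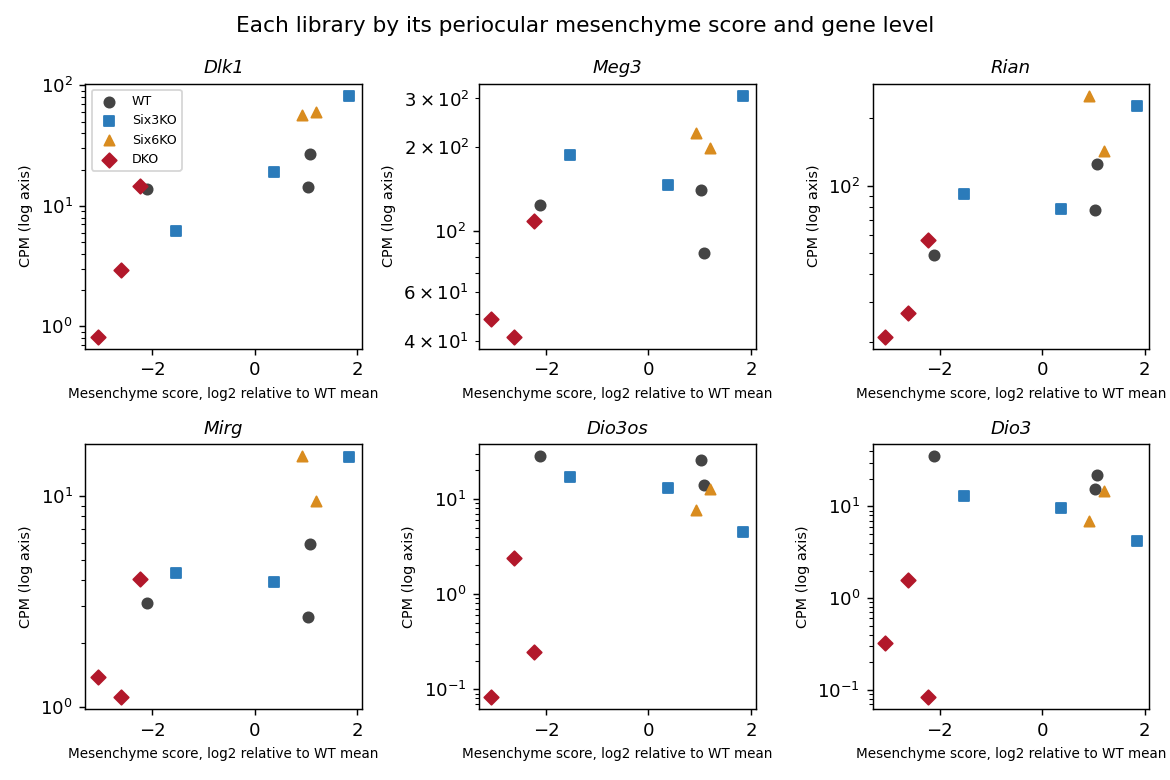
CPM (vertical axes, log scale) of the 6 members in each library against its periocular mesenchyme score (horizontal axes, log2 relative to the WT mean), with 1 symbol for each group. Dlk1, Rian and Mirg have their highest values in libraries with scores of 0.92 or more, whereas the WT library at -2.11 holds the highest Dio3 (35.0 CPM) and the DKO libraries at -3.06 to -2.23 the lowest.

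With the mesenchyme score added to the fit as a covariate, the estimates for the 2 ends of the cluster moved apart. In DKO against WT, Dio3 stood at -5.98 ± 0.75 and Dio3os at -5.37 ± 0.92, while Dlk1 stood at -0.02 ± 0.93, Rian at -0.24 ± 0.49 and Mirg at 0.13 ± 0.73. Meg3 stood at -0.57 ± 0.46. In DKO against Six3KO, Dio3 passed with the covariate, at -4.60 ± 0.77 (edgeR adjusted p = 0.0461), Dio3os stood at -4.38 ± 0.92 and Meg3 at -1.39 ± 0.50, and Dlk1, Rian and Mirg stood at -0.17 ± 1.16, -0.78 ± 0.51 and -0.59 ± 0.77. In DKO against Six6KO the covariate left -5.28 ± 0.94 for Dio3, -1.31 ± 0.60 for Meg3 and -0.89 for Dlk1. The highest estimates there in any fit tried, the one with the covariate included, were -1.16 for Rian and -1.15 for Mirg. The score was -2.23 or lower in every DKO library and -2.11 or higher in every other library, without overlap. The covariate and the genotype are thus confounded in these fits, and their parts cannot be told apart.

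**Figure D4:**
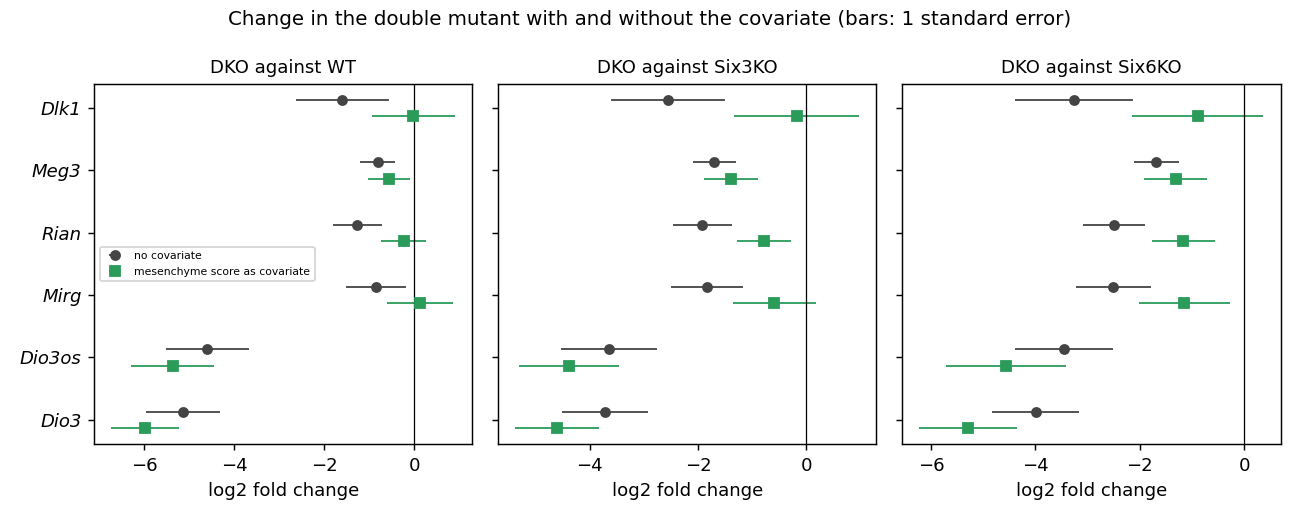
Log2 fold change of DKO against WT, Six3KO and Six6KO (horizontal axes, bars of 1 standard error) for the 6 members (vertical axis), without a covariate (circles) and with the mesenchyme score as covariate (squares). With the covariate Dio3 lies at -5.98, -4.60 and -5.28, and Dlk1 at -0.02, -0.17 and -0.89.

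Markers of other tissues varied widely between libraries. In DKO against WT edgeR called 1 of 15 blood vessel and 1 of 17 surface ectoderm markers, both lower. It called 0 of the 22 lens, 11 pigment epithelium, 12 macrophage and 6 red blood cell markers, against 1.29% of all genes. By estimate, 22 lens, 15 blood vessel, 17 surface ectoderm, 10 pigment epithelium, 6 red blood cell and 1 macrophage markers were below 0. All 26 mesenchyme markers were below 0 too, with a median of -3.63 and 1 called lower. Summed CPM of 15 blood vessel markers was 195 to 440 in WT, 190 to 461 in Six3KO, 337 to 430 in Six6KO and 131 to 137 in DKO. Lens markers were at 352.8 to 27156 CPM in Six3KO and 114 to 11796 CPM in Six6KO, against 82.8 to 1614 CPM in WT. Summed CPM of 11 pigment epithelium markers was 90.7 to 2348 in WT and 195 to 701 in DKO, and that of 17 surface ectoderm markers 79.6 to 687 in WT and 33.6 to 77.3 in DKO. Macrophage markers (12 genes) were at 33.2 to 76.5 CPM in WT and 59.0 to 153 CPM in DKO, and red blood cell markers (6 genes) at 722 to 2353 CPM in WT and 569 to 715 CPM in DKO. The part of these tissues in the levels of the cluster was not tested.

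Genes beside the cluster had small differences in DKO against WT. Within 1 Mb of it, 18 genes were tested, 7 before Dlk1 and 11 after Dio3, and in DKO against WT edgeR called 0 of them (3 had an unadjusted p under 0.05, and DESeq2 called 1, Traf3 at 0.49), while 13% of all genes had an unadjusted p under 0.05 and DESeq2 called 773. Their log2 differences ran from -0.67 to 0.49, with a median of -0.01. Before Dlk1, Begain, a gene of a synaptic protein, stood at -0.67 ± 0.23 (edgeR adjusted p = 0.219), Wdr25 at 0.20 ± 0.27, Wars, a tryptophanyl-tRNA synthetase, at 0.06 ± 0.12 and Slc25a47, a mitochondrial carrier, at -0.23 ± 0.39. After Dio3, Ppp2r5c, a regulatory subunit of protein phosphatase 2A, stood at 0.09 ± 0.11, Dync1h1, the dynein heavy chain, at 0.01 ± 0.27, Hsp90aa1, a chaperone, at -0.02 ± 0.20 and Wdr20 at 0.15 ± 0.14. Ppp2r5c is the nearest tested gene after Dio3, 168.1 kb from its start. Begain, the nearest tested gene before Dlk1, was at 7.70 to 12.8 CPM in DKO and 14.5 to 19.2 CPM in WT. Every DKO library was thus below every WT library for Begain, as for 8.46% of all genes. The other named neighbours overlapped between DKO and WT. In the single mutants against WT, all 18 flanking genes lay between -0.35 and 0.47.

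Dio3os was close to Dio3 in its levels over the libraries. The low DKO values that chose both genes enter this likeness, so nothing is read from it. Of 13291 other genes, Dio3os ranked 2 by Pearson correlation with Dio3 over the 11 libraries (r = 0.97 on log2 CPM), whereas Rian ranked 1636, Dlk1 1671, Meg3 1825 and Mirg 2780 (r = 0.33 to 0.47). With the genes of the cluster left out, and of 11633 genes that reached an average of 5 CPM, the 5 most alike to Dio3 were Cpne5, a copine (r = 0.97), the cyclin gene Ccnd1 (0.97), the calretinin gene Calb2 (0.97), the receptor tyrosine kinase gene Kit (0.97) and Rtn4rl1, a Nogo receptor homologue (0.96). In DKO against WT these stood at -2.44 for Cpne5, -2.27 for Ccnd1, -3.43 for Calb2 and -1.28 for Kit. Rtn4rl1 stood at 0.50 of its WT level. All were smaller differences than that of Dio3, which this contrast chose. For Meg3 the most alike were Camk2a (r = 0.93), Rhobtb1 (0.92), Speg (0.90), Stat3 (0.89) and Tpcn1 (0.89), while Rian ranked 8 and Mirg 12 of 13291 genes (r = 0.87 and 0.86). These correlations run over libraries of 4 groups that share their group differences and are given as descriptions of likeness.

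Of the thyroid hormone genes listed, Dio3 alone passed in DKO against WT. The list of 26 held 18 tested genes, of which edgeR called 0 higher and 1 lower, Dio3 itself; 4 had an unadjusted p under 0.05 and DESeq2 called 2, Dio3 and Rxrg. Over all genes 1.29% were called in edgeR, 13% had an unadjusted p under 0.05 and DESeq2 called 773, and Dio3 is itself a gene by which the locus was chosen. The list's median was -0.20, against -0.00 over all genes. Thra, the thyroid hormone receptor alpha gene, stood at 0.02 ± 0.11 and Thrb, the receptor beta gene with a role in cone opsin choice, at -0.53 ± 0.21 (edgeR adjusted p = 0.288). Rxrg, a retinoid X receptor of cones, was at 2.04 to 7.28 CPM in WT and 1.07 to 2.07 CPM in DKO, a log2 difference of -1.77 ± 0.47 (edgeR adjusted p = 0.119). Klf9, a gene induced by the hormone in many tissues, stood at -0.10 ± 0.42. The lowest estimates after Dio3, named after their values were seen, were those of Ttr, a carrier protein of the hormone (-3.34 ± 2.27), Crym, a hormone-binding protein (-3.03 ± 1.5), and the amino acid transporter gene Slc7a8 (-2.09 ± 0.84), and none of the 3 passed. The activating deiodinase gene Dio2 has no row in the table and was not analysed here.

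In the single mutants no gene of the list passed. Thrb stood at -1.01 ± 0.24 in Six6KO against WT (edgeR adjusted p = 0.991), with 38.4 and 42.3 CPM in its 2 libraries against 72.3 to 97.9 CPM in WT, and at -0.41 ± 0.20 in Six3KO against WT. In each of these comparisons 1 of 18 had an unadjusted p under 0.05 and DESeq2 called 0. Rxrg stood at -0.14 ± 0.50 in Six6KO and -0.40 ± 0.45 in Six3KO.

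**Figure D5:**
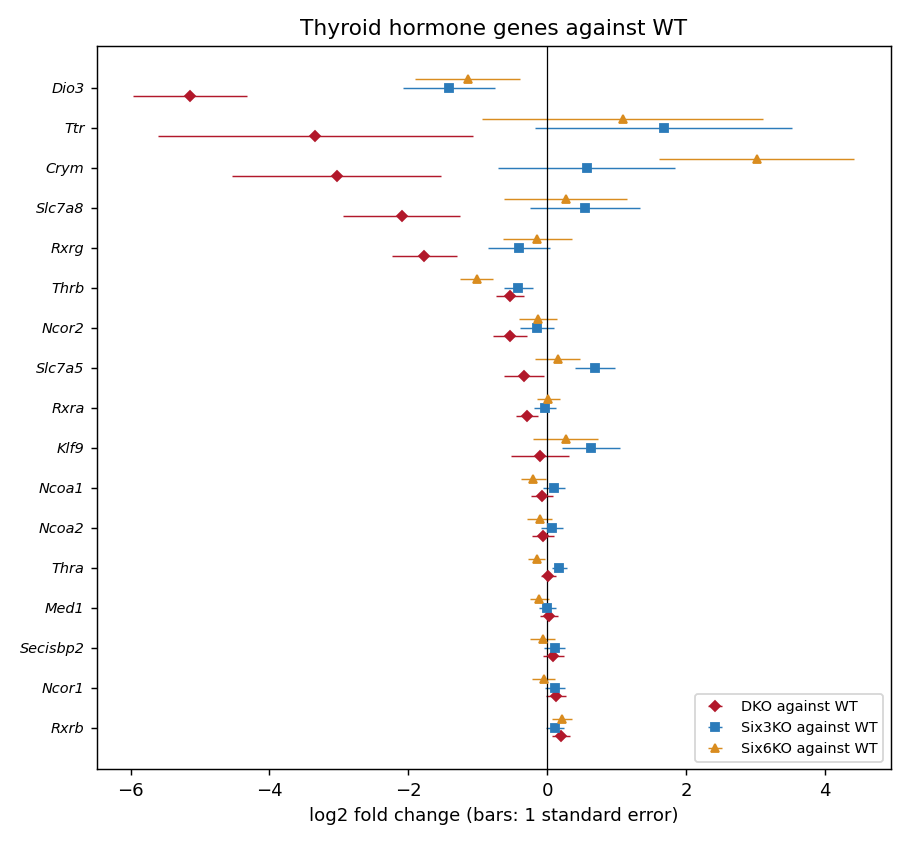
Differences from WT on the log2 scale (horizontal axis, with 1 standard error as bars) of 17 of the 18 tested thyroid hormone genes (vertical axis, ordered by the DKO value; 1 is not reported here) in DKO, Six3KO and Six6KO. Dio3 has the lowest DKO value, -5.14, followed by Ttr, Crym and Slc7a8, while the receptor gene Thra and the coregulator genes Ncor1 and Ncoa1 lie between -0.20 and 0.18 in all 3 comparisons.

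Imprinted genes of other loci are set beside Dlk1, Meg3, Rian and Mirg, because DKO against WT chose the Dio3 pair. In that contrast Dlk1 stood at -1.59, Meg3 at -0.81, Rian at -1.26 and Mirg at -0.85. Of 42 listed, 36 were tested, and in DKO against WT edgeR called 0 (8 had an unadjusted p under 0.05, and DESeq2 called 2, Peg3 and Grb10, against 13% and 773 of all genes), with a median of -0.16 and a range from -1.28 to 0.89. Igf2, a paternally expressed growth factor gene, stood at -1.28 ± 0.53 and H19, its maternally expressed noncoding neighbour, at -1.15. Both were within the range of Dlk1, Meg3, Rian and Mirg. Cdkn1c, a cell cycle inhibitor gene, stood at -0.65, Peg10, a retrotransposon-derived gene, at -0.79 ± 0.28, and Grb10, a signalling adaptor gene, at -0.43 ± 0.14. Peg3, a zinc finger gene, stood at 0.89 ± 0.25, Plagl1, a zinc finger gene too, at -0.11 and Mest at -0.13. Igf2, H19 and Cdkn1c had estimates above 0 in both single mutants (0.57, 0.68 and 0.54 in Six3KO, and 0.65, 0.88 and 1.09 in Six6KO against WT), as Dlk1, Meg3, Rian and Mirg did, and none passed. In Six3KO, library rh026 was by far the highest for Igf2, H19 and Cdkn1c, at 1499, 2965 and 439 CPM. Libraries rh006 (432, 809 and 149 CPM) and rh012 (546, 996 and 177 CPM) lay within the range of WT. In the other comparisons edgeR called 0 of the 36 genes as well, with 0 to 12 at an unadjusted p under 0.05 and 0 to 3 called by DESeq2.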

How the data were processed

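The deposited values are raw counts of reads for 13498 gene symbols in 11 libraries. The submitters' processing notes name Trim Galore 0.3.7, TopHat2 2.0.13, HTSeq 0.6.1, Cufflinks 2.2.1, Cuffdiff and the build mm10. Which annotation and strand setting were used, and how the listed genes were chosen, is not stated in any source at hand. RNA was depleted of ribosomal RNA, per the labels' protocols. Samples are pairs of retinas called biological replicates in the design text, which names DESeq2 for the authors' own comparisons; whether the pairs came from separate litters is not stated. Column names give the group and a library name but no replicate number.

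For this report, edgeR 4.0.16 in R 4.3.3 was run on the counts (filterByExpr with a minimum count of 10, TMM, robust quasi-likelihood fit on all 11 libraries with a mean for each group). P-values were adjusted over all 13292 genes tested, and genes under 0.05 were called. The standard error is the size of the log2 fold change divided by the square root of F. Scores are means of log2 CPM with a prior count of 2. The members and gene lists were chosen with earlier results of these data known. Named genes are the members, the 4 nearest tested genes on each side within 1 Mb, the 5 genes most alike to Dio3 and to Meg3 (average of 5 CPM or more), and fixed genes of the thyroid hormone and imprinted lists, of which 1 is not reported here. A contrast of DKO with the added effects of both single mutants was chosen after the data were seen. Alternatives were other scalings, no filter, DESeq2 1.42.0, the compared groups alone, each library left out and a mesenchyme covariate. The fit was tested on simulated data. Within groups, no pair of libraries agreed within sampling noise (chi-square divided by its degrees of freedom, 9.72 to 77.3). Promoters are from RefSeq (GRCm38.p6), in which all 4 genes shown matched by symbol, and positions are from GENCODE vM21 (GRCm38, the build mm10 names), in which 13211 of 13498 symbols matched a single gene.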

Additional observations from a re-analysis of the deposited data

Results flagged for a closer look

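For 2 genes of the cluster, every library moved one way under 1 loss and the opposite way under the same loss in the other background. Such opposite moves without overlap, in either order, were found under Six3 loss for Meg3 (1 of 6 members) and 0.903% of all genes, and under Six6 loss for Meg3 and Rian (2 of 6 members) and 1.78% of all genes. Meg3 was above all WT libraries in every Six3KO and Six6KO library, and below all Six6KO and all Six3KO libraries in every DKO library. The difference between DKO and the added log2 effects of both single mutants was -2.57 ± 0.58 for Meg3 (edgeR unadjusted p = 0.00148, adjusted p = 0.336). Rian was above all WT libraries in both Six6KO libraries and below all Six3KO libraries in every DKO library, with a difference of -3.15 ± 0.80 (edgeR unadjusted p = 0.00311, adjusted p = 0.336). The same contrast stood at -4.21 ± 1.5 for Dlk1, -3.48 ± 0.97 for Mirg, -2.50 ± 1.2 for Dio3os and -2.58 ± 1.06 for Dio3, whose libraries did not all move in opposite ways (edgeR adjusted p 0.336 to 0.537). It passed for 0 of 13292 genes in edgeR (DESeq2 was not run on it), and 1328 had an unadjusted p under 0.05. For the 26 periocular mesenchyme markers it was below 0 in all 26, with a median of -4.52. The mesenchyme covariate was not fitted to this contrast, so the part of mesenchyme in it was not tested. In DKO against WT, the covariate moved Meg3 from -0.81 to -0.57 and Rian from -1.26 to -0.24.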

How the results depend on the processing

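The log2 differences of the 6 members in 6 comparisons were recomputed under 17 alternatives, and 571 of these values kept direction and side of the threshold, 16 lost a call, 16 gained one and 9 changed sign. In DKO against WT, Dio3 ranged from -6.79 to -4.63 and Dio3os from -6.99 to -4.07, and with 1 library left out 0 to 2 members were called. Dio3os lost its call with relative log expression factors (RLE) and in the fit of the 2 groups alone, which left 1 member called each time. It also lost it in 9 of 11 fits without 1 library, those other than DKO rh021 and Six3KO rh026. DESeq2 called 4 members in DKO against Six3KO and 5 in DKO against Six6KO, the mesenchyme covariate gave 1 in the former and the 2 groups alone 2 in the latter (Rian and Dio3), and fits without 1 library gave 0 to 2 in each. Sign changes were found for Mirg in DKO against WT with the covariate (0.13), Dlk1 in Six3KO against WT (-0.54 to 1.49 without 1 library), and in Six3KO against Six6KO for Dio3os (-0.18 with the covariate, -0.18 to 0.60 without 1 library), Meg3 (-0.34 to 0.22) and Dio3 (-0.69 to 0.37).

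Counts over all genes moved more. DESeq2 called 773 genes in DKO against WT, 774 against Six3KO, 671 against Six6KO, 18 in Six3KO against WT, 2 in Six6KO against WT and 2 in Six3KO against Six6KO. The fit of the 2 groups alone called 10 in Six6KO against WT and 682 in DKO against Six6KO, where the covariate left 2. Without 1 library, edgeR called 20 (without DKO rh010) to 279 (without Six3KO rh026) genes in DKO against WT, 16 (without DKO rh010) to 93 in DKO against Six3KO, 1 (without DKO rh010 or rh011) to 77 (without DKO rh021) in DKO against Six6KO, 0 to 1 in Six6KO against WT, 1 to 2 in Six3KO against WT and 1 to 2 in Six3KO against Six6KO. The causes were not tested. Other scalings moved the median log2 value of all genes by less than 0.1. In DKO 25 reads of Dio3 and 34 of Dio3os were counted in all, which limits the precision of their folds. No paired analysis was possible because the columns of the count table carry no replicate number.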

Other observations

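RefSeq places 58 microRNA hairpins between Dlk1 and Dio3, and 2 of them have a row in the table, Mir341 and Mir1188, both inside Rian. Mir341 had 1 to 14 reads and Mir1188 0 to 24 reads per library, with the 24 reads in Six3KO library rh026, which also had a Rian level of 227 CPM. Mature microRNAs are not measured by this kind of library.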
